A study of Mus musculus with 14 samples.

Results

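The 10 genes described here encode the carriers through which the proximal tubule of the kidney takes up glucose, fructose, mannose and phosphate, together with a scaffold protein that holds several of them at the cell surface. They were chosen by symbol, as Slc5a1, Slc5a2, Slc5a10, Slc2a2, Slc2a5, Slc34a1, Slc34a3, Slc20a1, Slc20a2 and Pdzk1, from the 22007 gene IDs of a table of RNA levels in mouse kidney cortex. Each of the 10 had a row in the table and passed the filter on low values, which left 12251 genes to test. RNA of microdissected cortex was sequenced in 14 libraries of C57BL/6 mice.

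The TRACK group held 4 libraries of mice with the transgene GGT-HIF1A_M3 on regular chow, and the WT group held 3 libraries of wild-type mice on the same chow. The TRACK-VAD group held 4 libraries of the same transgenic line on a diet deficient in vitamin A, and the WT-VAD group held 3 libraries of wild-type mice on that diet. Mice were randomised to a diet 2 weeks after weaning and were killed after 24 weeks, so the groups shared strain and feeding time. The transgene is meant to keep HIF1A, the oxygen-regulated transcription factor, constantly active, and the promoter named in its label, that of gamma-glutamyl transferase, is active mainly in the proximal tubule. The labels speak of 4 mice in each cohort and do not say how many founder lines were used. Protein levels and sugar or phosphate in urine were not analysed here.

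The proximal tubule reclaims filtered sugar in series. SGLT2, the product of Slc5a2, takes up most of the glucose with sodium in the early segments, and SGLT1, the product of Slc5a1, takes up the remainder further downstream. In the early segments glucose leaves the cell on the blood side through GLUT2, the product of Slc2a2, while GLUT5, the product of Slc2a5, carries fructose across the apical membrane of the late segment. Phosphate enters through the sodium phosphate cotransporters NaPi-IIa and NaPi-IIc, the products of Slc34a1 and Slc34a3, which are strongest in the early segments and are withdrawn from the membrane under parathyroid hormone and FGF23.

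Values below are FPKM, which divide fragments by transcript length and by library size, brought to a common scale between libraries by a trimmed mean. Levels of a gene can thus be set beside each other between libraries. Levels of different genes also depend on the transcript length used for each, which was not checked here. A difference is between group means of log2(scaled FPKM + 1), given with its standard error from limma and a p-value adjusted over the 12251 genes. A gene was called where that p was 0.05 or lower. The summed FPKM was 2012282 to 2551896 per library, and 11206 to 12277 genes reached 1 FPKM. Within a group the libraries correlated at 0.988 or more in TRACK, WT and WT-VAD, but at 0.957 to 0.991 in TRACK-VAD, where replicate 2 stood apart. The mouse Hif1a row did not separate the genotypes (log2 difference -0.08 in TRACK vs WT, adjusted p = 0.729), and since the transgene itself was not analysed here, this row does not check the labels. Ggt1, whose promoter the transgene is named for, averaged 891 FPKM in TRACK and 1139 FPKM in WT and was not called (adjusted p = 0.279). Y-linked genes were expressed in every library. By the lane numbers in the labels, WT, TRACK and TRACK-VAD replicates 1 to 3 carried lane 5 and TRACK-VAD replicate 4 and WT-VAD carried lane 6, so in wild-type mice diet and lane cannot be told apart. In TRACK-VAD vs WT-VAD, too, genotype and lane nearly coincide, since only TRACK-VAD replicate 4 shares the lane number of WT-VAD, and 221 genes were called there with a lane term in the model against 2732 without it.

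Between TRACK and WT, 4 of the 10 genes rose and 2 fell, where 17.3% of the genes tested were called, 8.53% higher and 8.82% lower in TRACK. The carriers that rose were Slc5a10, Slc2a5, Slc20a1 and Slc20a2, and those that fell were Slc34a1 and Slc34a3. On the deficient diet, TRACK-VAD against WT-VAD, 3 rose and 1 fell, where 22.3% of the genes tested were called, 11.1% higher and 11.2% lower in TRACK-VAD. Those that rose were Slc5a1, Slc5a10 and Slc20a1, and Slc34a1 fell. The median difference over the 10 genes was 0.15 on chow and 0.04 on the deficient diet, against -0.001 and -0.008 over the genes tested. In cortex as a whole, fewer proximal tubule cells and less of an RNA in each of these cells cannot be told apart.

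**Figure D1:**
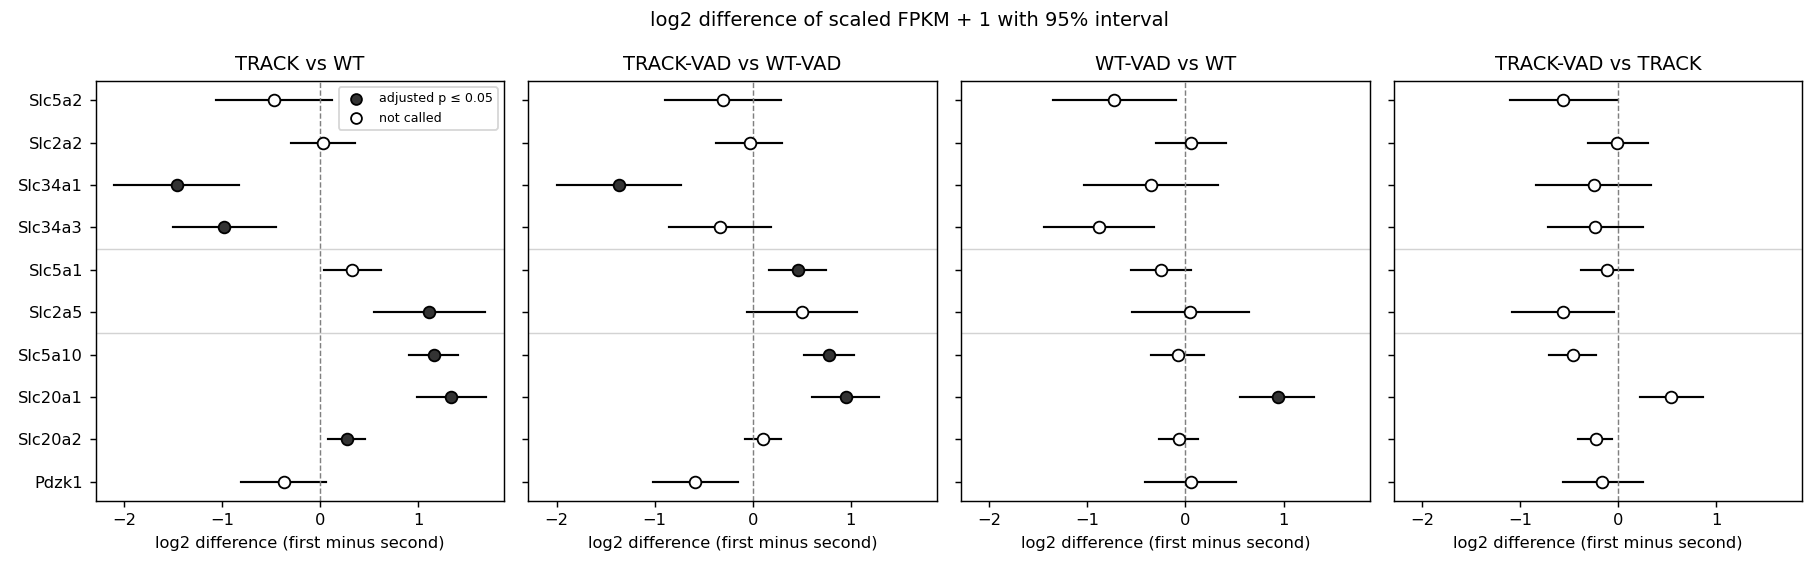
Log2 differences of the 10 genes in TRACK vs WT, TRACK-VAD vs WT-VAD, WT-VAD vs WT and TRACK-VAD vs TRACK. Bars are the 95% confidence interval from limma, and points are filled where the adjusted p was 0.05 or lower. In the comparisons of genotype Slc5a10 and Slc20a1 lay above 0 and Slc34a1 below 0 on both diets, while Slc2a2 lay at 0.03 and -0.03.

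The 250 bases before the start site are shown for the 3 carriers with the clearest changes, Slc34a1, Slc5a10 and Slc20a1, and for Slc5a1, the late glucose carrier. They come from RefSeq on GRCm38.p6, where 8 of the 10 genes were matched, with 11 windows in all, and Slc5a2 and Slc20a2 were not used here. Capitals mark ACGTG or GCGTG, the core of the HIF binding site. Both strands were searched, so capitals may read as the reverse complement, and CACGTG, which reads the same on both strands, was counted once.
Slc34a1 (chr13:55399398-55399647, plus strand): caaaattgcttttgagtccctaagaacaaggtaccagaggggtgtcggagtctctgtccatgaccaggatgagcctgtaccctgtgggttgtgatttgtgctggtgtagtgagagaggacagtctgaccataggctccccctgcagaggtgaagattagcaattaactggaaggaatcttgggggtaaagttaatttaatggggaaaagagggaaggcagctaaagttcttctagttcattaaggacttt
Slc5a10 (chr11:61720800-61721049, minus strand): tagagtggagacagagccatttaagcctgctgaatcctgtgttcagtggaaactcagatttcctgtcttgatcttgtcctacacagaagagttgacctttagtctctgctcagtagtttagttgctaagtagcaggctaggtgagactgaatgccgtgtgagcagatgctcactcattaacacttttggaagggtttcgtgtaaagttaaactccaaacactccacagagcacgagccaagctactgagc
Slc20a1 (chr2:129198523-129198772, plus strand): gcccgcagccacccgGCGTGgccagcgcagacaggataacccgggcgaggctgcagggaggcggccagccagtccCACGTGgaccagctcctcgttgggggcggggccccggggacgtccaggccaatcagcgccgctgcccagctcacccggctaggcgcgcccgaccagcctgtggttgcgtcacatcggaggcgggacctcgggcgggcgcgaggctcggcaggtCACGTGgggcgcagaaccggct
Slc5a1 (chr5:33103969-33104218, plus strand): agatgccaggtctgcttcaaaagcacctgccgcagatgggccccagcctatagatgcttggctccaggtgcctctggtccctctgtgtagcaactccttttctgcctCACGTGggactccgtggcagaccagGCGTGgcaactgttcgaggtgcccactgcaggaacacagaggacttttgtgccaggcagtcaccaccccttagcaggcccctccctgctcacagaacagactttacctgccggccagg
A HIF core stands in 5 of the 11 windows, those of Slc20a1, Slc5a1 and Pdzk1, against 38.6% of 32851 promoter windows of the mouse. It lies at 235, 175 and 22 bases in the Slc20a1 window shown and at 143 and 118 bases in that of Slc5a1. The windows of Slc34a1, Slc5a10, Slc2a2, Slc2a5 and Slc34a3 do not hold it. A match describes the letters only, and no binding was measured.

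Of the apical sugar carriers of the SLC5 family, Slc5a10 had a higher FPKM than Slc5a2 in TRACK and TRACK-VAD. It had a lower FPKM than Slc5a2 in WT and WT-VAD. Which of these genes stands higher within a group depends on the transcript lengths used. Slc5a10 (chromosome 11, 61672781 to 61720826 on GRCm38, the build of the positions given below) encodes SGLT5, a sodium-coupled carrier of mannose and fructose. It stood at 523, 493, 448 and 507 FPKM in TRACK and at 218, 222 and 221 FPKM in WT. Each TRACK library lay far above each WT library, and the 3 WT libraries differed among themselves by an SD of 2.1 FPKM. The log2 difference was 1.16 ± 0.12 (SE, adjusted p = 2.88e-05), a ratio of means of 2.24. Under vitamin A deficiency Slc5a10 stood at 354, 293, 344 and 455 FPKM in TRACK-VAD and at 221, 203 and 200.3 FPKM in WT-VAD. Those groups did not overlap either, and the log2 difference was 0.78 ± 0.12 (adjusted p = 0.00101). Among the genes tested the mean level of Slc5a10 ranked 136th in TRACK and 428th in WT.

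Slc5a2 (chromosome 7, 128265657 to 128272430) stood at 302, 267, 247 and 318 FPKM in TRACK and at 392, 319 and 479 FPKM in WT. The groups touched without overlapping, 318 FPKM in the highest TRACK library against 319 FPKM in the lowest WT library. The log2 difference of -0.47 ± 0.27 missed the threshold (adjusted p = 0.251), with a 95% interval of -1.06 to 0.12 that holds both a large loss and no loss. With the deficient diet Slc5a2 stood at 215, 97.1, 244 and 263 FPKM in TRACK-VAD and at 276, 225 and 212 FPKM in WT-VAD. These groups overlapped, with the low value of 97.1 FPKM in TRACK-VAD replicate 2, and the difference was -0.30 ± 0.27 (adjusted p = 0.449).

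Slc5a1 (chromosome 5, 33104219 to 33162870) was the least abundant of the 3 SLC5 carriers in each group. It stood at 37.0, 30.1, 28.0 and 30.2 FPKM in TRACK and at 24.7, 24.5 and 24.8 FPKM in WT. Each TRACK library was above each WT library, and the log2 difference of 0.33 ± 0.13 missed the threshold (adjusted p = 0.111). In TRACK-VAD it stood at 26, 23.9, 29.5 and 37.1 FPKM, against 23.1, 18.2 and 20.9 FPKM in WT-VAD. Again no TRACK-VAD library was as low as a WT-VAD library, and here the difference of 0.46 ± 0.13 was called (adjusted p = 0.0286). That call was lost without WT-VAD replicate 2 (adjusted p = 0.109) or replicate 3 (0.0694). Whether the genotype difference of Slc5a1 itself differed between diets was tested by the interaction, which was not called.

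Of the 2 SLC2 carriers, the GLUT5 gene rose in TRACK vs WT and the GLUT2 gene was called in neither comparison of genotype. Slc2a2 (chromosome 3, 28697903 to 28731359) averaged 155 ± 28.4 FPKM in TRACK and 152 ± 34.8 FPKM in WT (SD, n = 4 and 3). In TRACK-VAD it averaged 152 ± 10.3 FPKM and in WT-VAD 156 ± 5.29 FPKM. The differences were 0.03 ± 0.15 on chow, with a 95% interval of -0.30 to 0.36, and -0.03 ± 0.15 on the deficient diet. Slc2a2 was the member with the means closest together in both comparisons of genotype.

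Slc2a5 (chromosome 4, 150119283 to 150144169) stood at 132, 155, 129 and 184 FPKM in TRACK and at 64.7, 61.0 and 79.3 FPKM in WT. No TRACK library came near a WT library, and the log2 difference was 1.11 ± 0.26 (adjusted p = 0.0115), a ratio of means of 2.19. The 4 TRACK-VAD libraries stood at 79.6, 59.6, 135 and 155 FPKM, against 71.3, 64.3 and 76.0 FPKM in WT-VAD. TRACK-VAD replicates 3 and 4 lay in the range of TRACK, replicate 1 lay just above the WT-VAD libraries and replicate 2 below them. The difference of 0.50 ± 0.26 was not called (adjusted p = 0.183), and without TRACK-VAD replicate 2 it was 0.75 (adjusted p = 0.0314).

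**Figure D2:**
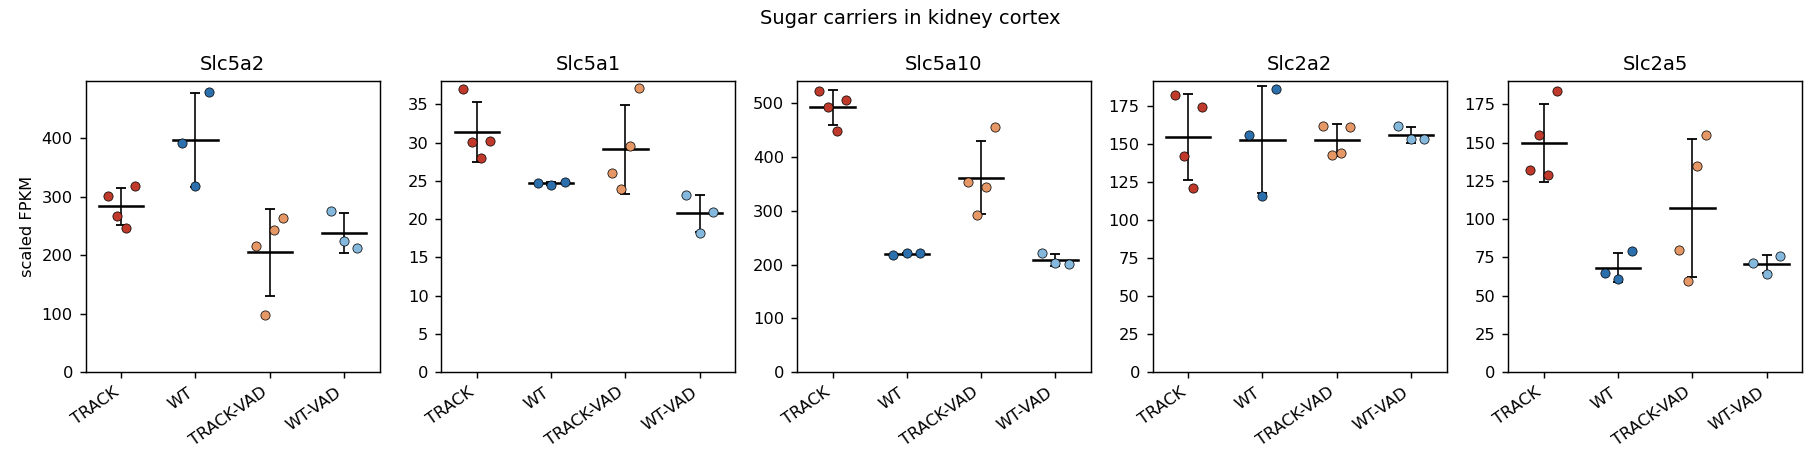
Scaled FPKM of the 5 sugar carriers in each of the 14 libraries, by group, with lines for the group mean and bars for its SD. In TRACK, Slc5a10 lay at 448 to 523 FPKM, above 218 to 222 FPKM in WT, while Slc2a2 overlapped between the groups.

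Further genes of these families and of sugar handling were counted from lists. The family list was drawn up by family name, and not every member of it carries sugar. Slc5a12 is in this list and among the early segment markers below. Of 17 further carriers of the SLC2 and SLC5 families 12 were tested, and in TRACK vs WT 1 rose and 2 fell, with a median of -0.18. The gene that rose was Slc2a1, which encodes GLUT1, the glucose carrier known as a target of HIF1A, at 61.8 FPKM in TRACK and 22.4 FPKM in WT (1.42 ± 0.14, adjusted p = 2.03e-05). Slc5a11, a sodium-coupled carrier of myo-inositol, fell by 1.21 on the log2 scale (22.7 FPKM in TRACK, 54.0 FPKM in WT, adjusted p = 0.00397). Slc2a8 fell by 0.33 (adjusted p = 0.0445). In TRACK-VAD vs WT-VAD the counts were again 1 and 2, with Slc2a1 up by 1.22 ± 0.14 (47.2 FPKM in TRACK-VAD, 19.6 FPKM in WT-VAD, adjusted p = 0.000135). Slc5a11 and Slc5a6, a vitamin carrier, were the 2 that fell, by 0.81 and 0.65. In both comparisons the GLUT1 gene therefore rose while the GLUT2 gene was not called.

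Among 7 enzymes of fructose breakdown and glucose production, 2 rose and none fell in each comparison of genotype. Tkfc, a kinase of fructose breakdown and 1 of those that rose, averaged 394 FPKM in TRACK and 229 FPKM in WT (0.77 ± 0.10, adjusted p = 0.000202). On the deficient diet Tkfc differed by 0.54 ± 0.10 (adjusted p = 0.00323). Khk, the fructokinase that opens this pathway, had differences of 0.32 (adjusted p = 0.109) and 0.20 (0.287) and was not called. The list median was 0.25 on chow and -0.03 on the deficient diet.

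The phosphate carriers moved in opposite directions. Slc34a1 (chromosome 13, 55399648 to 55414695), the gene of the main renal phosphate carrier, was the most abundant of the 10 genes in each group. It stood at 677, 546, 514 and 688 FPKM in TRACK and at 1718, 1367 and 1941 FPKM in WT. No TRACK library reached the lowest WT library, and the log2 difference was -1.46 ± 0.29 (adjusted p = 0.00503), a ratio of means of 0.362. Under vitamin A deficiency it stood at 394, 282, 836 and 699.8 FPKM in TRACK-VAD and at 1442, 1322 and 1152 FPKM in WT-VAD. Each TRACK-VAD library lay below each WT-VAD library, and the difference was -1.36 ± 0.29 (adjusted p = 0.00737). Its rank by mean level was 109th in TRACK and 32nd in WT. Both calls held when each library was left out in turn, but the call on the deficient diet was lost when only TRACK-VAD and WT-VAD entered the model (adjusted p = 0.0647) or when a lane term was added (-0.89, adjusted p = 0.391).

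Slc34a3 (chromosome 2, 25228898 to 25234364) stood at 37.5, 19.8, 18.8 and 28.5 FPKM in TRACK and at 47.5, 43.9 and 61.5 FPKM in WT. The groups did not overlap, and the log2 difference of -0.98 ± 0.24 was called (adjusted p = 0.0152), though not without WT replicate 3 (adjusted p = 0.0812). On the deficient diet it stood at 25.1, 14, 25.7 and 22.3 FPKM in TRACK-VAD and at 30.6, 28.4 and 22.5 FPKM in WT-VAD. These groups overlapped and the difference of -0.33 ± 0.24 was not called (adjusted p = 0.346).

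Slc20a1 (chromosome 2, 129198764 to 129211616) encodes PiT-1, a sodium phosphate carrier made by most cell types. It stood at 27.3, 35.4, 30.7 and 27 FPKM in TRACK and at 11.6, 10.7 and 11.4 FPKM in WT. No library of one group came near the other, and the log2 difference was 1.34 ± 0.16 (adjusted p = 0.000129), a ratio of means of 2.68, the highest of the 10 genes in TRACK vs WT. On the deficient diet it stood at 51.5, 55.6, 31.9 and 41.4 FPKM in TRACK-VAD and at 19.3, 24.3 and 24.1 FPKM in WT-VAD. The groups again did not overlap, and the difference was 0.95 ± 0.16 (adjusted p = 0.00225). Both calls held when each library was left out in turn, but with a lane term the call on the deficient diet was lost (0.86, adjusted p = 0.141).

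Slc20a2 (chromosome 8, 22476788 to 22569612), which encodes PiT-2, the related carrier found in the brush border, averaged 31.7 ± 0.977 FPKM in TRACK and 26.1 ± 1.13 FPKM in WT (SD, n = 4 and 3). The difference was 0.27 ± 0.09 with an adjusted p of 0.0484, which passed 0.05 with little room. When each of the 7 libraries was left out in turn the adjusted p was 0.058 to 0.165 and the call was lost each time. The means were 26.9 ± 2.91 FPKM in TRACK-VAD and 24.9 ± 2.29 FPKM in WT-VAD, where the difference of 0.10 ± 0.09 was not called (adjusted p = 0.412).

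**Figure D3:**
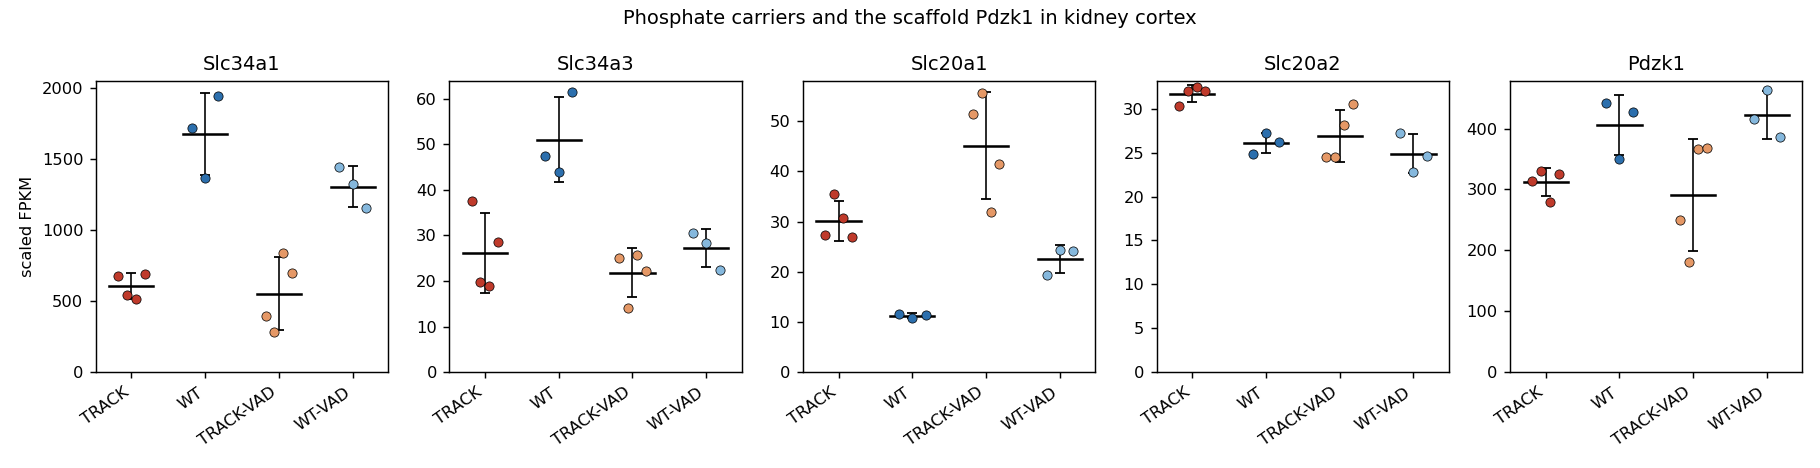
Scaled FPKM of the 4 phosphate carriers and Pdzk1 in each of the 14 libraries, by group, with lines for the group mean and bars for its SD. Slc34a1 lay at 514 to 688 FPKM in TRACK, below 1367 to 1941 FPKM in WT, and Slc20a1 lay at 27 to 35.4 FPKM in TRACK, above 10.7 to 11.6 FPKM in WT.

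Pdzk1 (chromosome 3, 96829284 to 96870926) encodes a PDZ-domain scaffold of the brush border that binds the tails of NaPi-IIa and other apical carriers. It stood at 314, 330.4, 279 and 326 FPKM in TRACK and at 442, 349.8 and 427 FPKM in WT. The groups did not overlap, yet the log2 difference of -0.37 ± 0.20 was not called (adjusted p = 0.217). In TRACK-VAD it stood at 250.3, 181, 367 and 368 FPKM, against 415, 464 and 387 FPKM in WT-VAD. The groups did not overlap here either, and the difference of -0.59 ± 0.20 missed the threshold narrowly (adjusted p = 0.0519, 95% interval -1.02 to -0.15). Without TRACK-VAD replicate 3 or 4 the adjusted p was 0.0175 and 0.0196. Of the 7 libraries left out in turn only these 2 gave a call, and the adjusted p reached 0.146.

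Of 6 further genes of the apical scaffold and its partners, 3 fell and none rose in TRACK vs WT, with a median of -0.33. These were Pdzd3 (-0.60 ± 0.15, adjusted p = 0.0165), Pdzk1ip1 (-0.52 ± 0.12, 0.0101) and Slc9a3r1 (-0.50 ± 0.15, 0.0382), the last encoding NHERF1, which holds NaPi-IIa at the membrane. In TRACK-VAD vs WT-VAD, Pdzd3 and Slc9a3r1 fell by 0.70 and 0.68 and Slc9a3r2, encoding NHERF2, rose by 0.48 ± 0.13 (adjusted p = 0.0239). Slc9a3, the sodium proton exchanger bound by these scaffolds, was called in neither comparison.

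Among 10 tested genes of other phosphate carriers and of the hormones that govern them, 1 rose and 2 fell in TRACK vs WT, with a median of -0.38. Slc34a2, the family member known from lung and intestine, averaged 15.4 FPKM in TRACK and 1.99 FPKM in WT (2.40 ± 0.24, adjusted p = 2.41e-05). It thus rose while the 2 renal members of its family fell. Pth1r, the parathyroid hormone receptor, fell by 0.37 ± 0.10 (253 FPKM in TRACK, 329 FPKM in WT, adjusted p = 0.0174). Slc17a1, an organic anion carrier first described for phosphate, fell by 0.38 ± 0.09 (adjusted p = 0.0139). In TRACK-VAD vs WT-VAD, Slc34a2 rose by 1.74 ± 0.24 (10.1 FPKM in TRACK-VAD, 2.23 FPKM in WT-VAD, adjusted p = 0.000533), and 6 fell. Those 6 were Slc17a3, Kl, Xpr1, Vdr, Pth1r and Slc17a1, by 0.97, 0.96, 0.61, 0.57, 0.51 and 0.42, so that the genes of the FGF23 co-receptor klotho, of the vitamin D receptor and of the phosphate exporter XPR1 were among them. The list median there was -0.54.

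The balance between carriers within a library followed from these levels and is given as a description. The ratio of Slc5a2 to Slc5a1, early over late glucose carrier, was 8.17, 8.85, 8.84 and 10.5 in TRACK and 15.9, 13.1 and 19.3 in WT. In TRACK-VAD it was 8.28, 4.06, 8.25 and 7.10, against 12, 12.4 and 10.1 in WT-VAD. On neither diet did the genotypes overlap, and the transgenic libraries were the lower ones. The ratio of Slc2a2 to Slc2a5 was 1.38, 0.92, 0.94 and 0.95 in TRACK and 2.41, 1.91 and 2.34 in WT, and 2.03, 2.40, 1.07 and 1.04 in TRACK-VAD and 2.27, 2.37 and 2.02 in WT-VAD. Here the genotypes were apart on chow and overlapped on the deficient diet. The ratio of Slc5a2 to Slc5a10 lay below 1 in each of the 8 transgenic libraries, at 0.332 to 0.709. It lay above 1 in each of the 6 wild-type libraries, at 1.06 to 2.17. Its place relative to 1 depends on the transcript lengths used, while the separation of the genotypes does not. SGLT2 RNA made up 35.1 ± 1.51% of the summed FPKM of the 3 SLC5 carriers in TRACK and 61.5 ± 4.82% in WT, while their sum was 808 ± 64.8 FPKM in TRACK and 641 ± 79.6 FPKM in WT (SD, n = 4 and 3).

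For phosphate the ratio of Slc34a1 to Slc20a1 was 24.8, 15.4, 16.7 and 25.5 in TRACK and 147, 128 and 169.9 in WT. It was 7.65, 5.07, 26.2 and 16.9 in TRACK-VAD, against 74.8, 54.4 and 47.8 in WT-VAD. No transgenic library of either diet reached a wild-type one. The ratio of Slc34a1 to Slc20a2 was likewise 15.8 to 22.3 in TRACK and 50.3 to 74.0 in WT, and 11.5 to 29.8 in TRACK-VAD and 46.9 to 58.0 in WT-VAD. The 4 phosphate carriers summed to 694 ± 93.3 FPKM in TRACK and 1764 ± 298 FPKM in WT, of which Slc34a1 was 87.2 ± 1.21% in TRACK and 94.9 ± 0.516% in WT. Slc20a1 was 4.44 ± 1.09% of that sum in TRACK and 0.648 ± 0.0885% in WT.

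**Figure D4:**
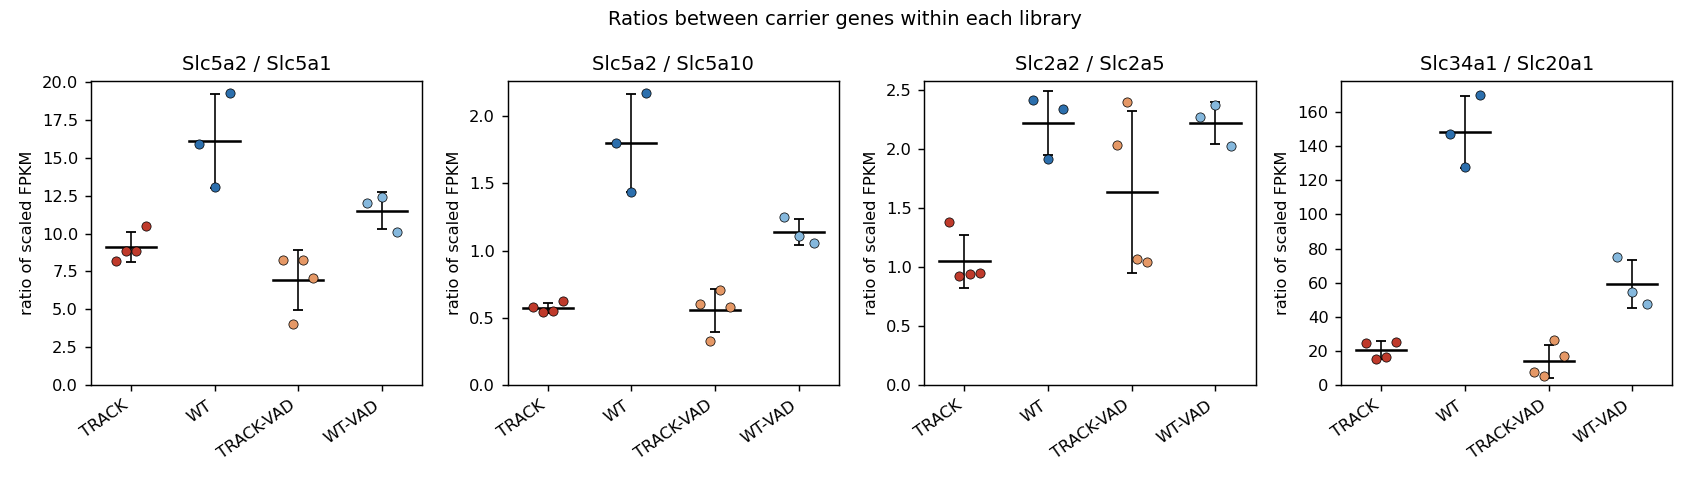
Ratios of scaled FPKM between carrier genes in each library, by group, with lines for the group mean and bars for its SD. Slc5a2 over Slc5a10 lay below 1 in the 8 transgenic libraries and above 1 in the 6 wild-type libraries.

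The carriers were set beside markers of the segments they belong to. Of 8 markers of the early proximal tubule, 4 fell and none rose in TRACK vs WT, with a median of -0.91. Those that fell were the organic anion carriers Slc22a8 (-1.47) and Slc22a6 (-1.39) and the amino acid carriers Slc6a19 (-1.09) and Slc7a7 (-0.88). None of 7 markers of the late segment was called and their median was -0.11. In TRACK-VAD vs WT-VAD the early markers had 3 that fell, Slc22a6, Slc22a8 and Slc6a19, with a median of -0.64, and the late markers had none, with a median of -0.52. Early carriers thus spanned -1.46 to 0.03 on chow. There Slc34a1, Slc34a3 and Slc5a2 (-0.47, not called) lay in the range of the early markers, and Slc2a2 lay above each of these markers. The late carriers Slc2a5 and Slc5a1, at 1.11 and 0.33, had a mean level above WT, though Slc5a1 was not called. Of the 7 late markers, 5 had a mean level below WT. The late markers above it, Cyp7b1 and Acsm3, are also among the kidney genes known to differ between the sexes, counted below.

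**Figure D5:**
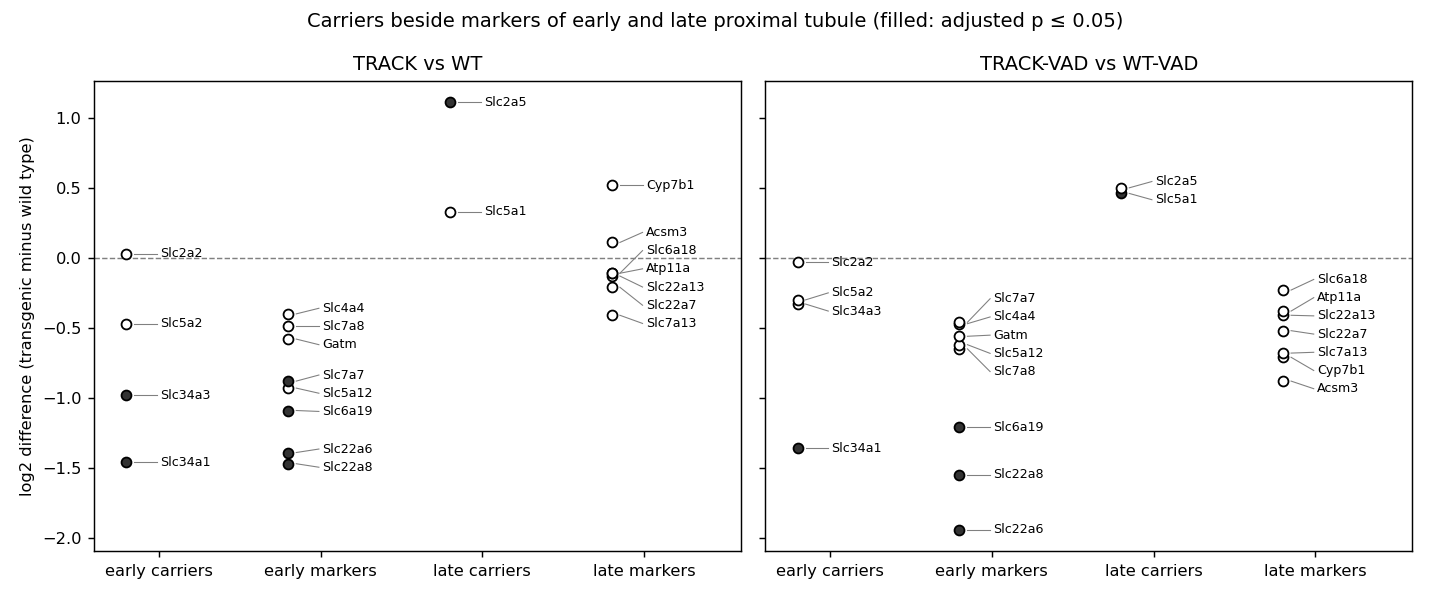
Log2 differences of early and late carriers beside markers of the early and late proximal tubule, in TRACK vs WT and TRACK-VAD vs WT-VAD, with filled points where the limma adjusted p was 0.05 or lower. The 8 early markers lay below 0 on both diets, and the late carriers lay above 0.

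Summed FPKM of the 8 early markers was 789 to 1057 in TRACK and 1474 to 2056 in WT, and 429 to 973 in TRACK-VAD and 1444 to 1519.6 in WT-VAD. Of 7 general proximal tubule markers, 3 fell in TRACK vs WT and 4 in TRACK-VAD vs WT-VAD, and their summed FPKM was 2216 to 2425 in TRACK and 3280.4 to 4072 in WT. Of 5 macrophage markers 5 rose in both comparisons, with summed levels of 77.0 to 93.4 FPKM in TRACK, 35 to 43.5 in WT, 97.8 to 221 in TRACK-VAD and 37.5 to 55.0 in WT-VAD. Of 5 tested injury markers, 2 rose in TRACK vs WT and 5 in TRACK-VAD vs WT-VAD. Summed injury markers were 568 to 837 FPKM in TRACK and 452 to 593 FPKM in WT. In TRACK-VAD they were 1819, 8306, 552 and 496 FPKM for replicates 1 to 4, against 299.6 to 318 FPKM in WT-VAD. Spp1 was the largest part of these sums, with means of 611 FPKM in TRACK, 540.3 in WT, 2615 in TRACK-VAD and 305 in WT-VAD. In TRACK vs WT Spp1 was not called (0.17, adjusted p = 0.892). Those that rose there were Havcr1, from 0.779 FPKM in WT to 35 FPKM in TRACK (4.23 ± 0.70, adjusted p = 0.00143), and Vcam1 (1.11). TRACK-VAD replicates 1 and 2, the libraries with the highest summed injury markers, also had the lowest Slc34a1, Slc2a5 and Pdzk1 and the highest Slc20a1 of their group. Of 4 endothelial markers 2 and of 3 fibroblast markers 1 rose in both comparisons, while none of the thick limb, distal tubule and collecting duct markers was called. Of 6 kidney genes known to differ between the sexes, 2 rose and 1 fell in TRACK vs WT, namely Akr1c18 (2.91), Slc7a12 (2.01) and Cyp4b1 (-1.62). None of these lists had a marker at 0 in all libraries. The part of these shifts in the carriers' differences was not tested.

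Of 7 transcription factors of the proximal tubule only 6 were tested, and the counts here do not cover the factor left out. Summed FPKM of the 7, which includes that factor, was 228, 272 and 488 in WT replicates 1, 2 and 3. Of the 6 tested, 2 fell and none rose in TRACK vs WT, with a median of -0.41. They were Ppara (-0.70 ± 0.15, adjusted p = 0.00863), the fatty acid sensing receptor, and Hnf4g (-0.55 ± 0.09, adjusted p = 0.00113). In TRACK-VAD vs WT-VAD 4 fell, Ppara, Maf, Esrra and Hnf4g, with a median of -0.40.

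Between WT-VAD and WT, 1 of the 10 genes rose and none fell, where 0.514% of the genes tested were called, 0.22% higher and 0.294% lower in WT-VAD. The gene was Slc20a1, at 19.3, 24.3 and 24.1 FPKM in WT-VAD and 11.6, 10.7 and 11.4 FPKM in WT. The groups did not overlap, and the log2 difference was 0.94 ± 0.17 with an adjusted p of 0.0286. That call held without WT-VAD replicate 1 and was lost without any other single library, the adjusted p being 0.0461 to 0.152 over the 6. Slc34a3 had a similar difference in size, -0.88 ± 0.26, with 30.6, 28.4 and 22.5 FPKM in WT-VAD and 47.5, 43.9 and 61.5 FPKM in WT, and was not called (adjusted p = 0.206), though with only WT-VAD and WT in the model it was (adjusted p = 0.0434), which makes 1 higher and 1 lower of the 10. Slc5a2 averaged 238 ± 33.9 FPKM in WT-VAD and 397 ± 79.8 FPKM in WT without overlap, and was not called (-0.73 ± 0.29, adjusted p = 0.397). In the authors' deposited table the change of Slc20a1 in WT-VAD vs WT was 0.93 (adjusted p = 9.19e-06) and that of Slc34a3 was -0.80 (adjusted p = 0.0305).

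Between TRACK-VAD and TRACK none of the 10 genes was called by limma, where 0.155% of the genes tested were called, and in each gene the groups overlapped. At an unadjusted p of 0.05 or lower, 5 of the 10 stood out, against 1282 of the 12251 genes. Slc5a10 averaged 361 ± 67.8 FPKM in TRACK-VAD and 493 ± 32.0 FPKM in TRACK (-0.46 ± 0.11, adjusted p = 0.159). Without TRACK-VAD replicate 4, the library of lane 6, that difference was -0.58 and was called (adjusted p = 0.00944). Slc20a1 averaged 45.1 ± 10.7 FPKM in TRACK-VAD and 30.1 ± 3.92 FPKM in TRACK (0.54 ± 0.15, adjusted p = 0.254), and in the authors' deposited table it had a change of 0.52 with an adjusted p of 0.0278. No gene of the lists of markers, enzymes, carriers, scaffolds and factors was called in either comparison of diet. Slc5a2, Slc2a5 and Slc34a1 had lower means in TRACK-VAD, with differences of -0.56, -0.56 and -0.25.

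No member was called for the interaction of genotype and diet, which had 0.00816% of the genes tested called. The lowest adjusted p was that of Slc5a10, whose difference between genotypes was 0.38 ± 0.17 smaller on the log2 scale on the deficient diet (adjusted p = 0.581). The same quantity was -0.61 ± 0.37 for Slc2a5 (adjusted p = 0.677) and 0.65 ± 0.34 for Slc34a3 (0.643). So Slc34a3, Slc2a5 and Slc20a2, called on chow and not on the deficient diet, and Slc5a1, called the other way round, are not shown to differ between diets. Ordered by mean, Slc20a1 ran from TRACK-VAD over TRACK and WT-VAD to WT, and Slc5a10 from TRACK over TRACK-VAD to WT and WT-VAD, whose means of 208 ± 11.6 FPKM in WT-VAD and 219.9 ± 2.1 FPKM in WT lay close together.

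The authors' deposited table gave like values for the main changes on chow. In that table TRACK vs WT was 1.0 for Slc5a10, 1.24 for Slc20a1, -1.29 for Slc34a1, 0.99 for Slc2a5 and -0.82 for Slc34a3, each with an adjusted p of 0.00204 or lower. Slc20a2, called here, had 0.22 with an adjusted p of 0.112 in the authors' deposited table. Pdzk1 in TRACK-VAD vs WT-VAD, not called here, had -0.52 with an adjusted p of 0.0231 there.

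With the values left unscaled the median gene shifted by 0.16 in TRACK vs WT and by 0.18 in TRACK-VAD vs WT-VAD, so differences here are relative to that shift. Without scaling Slc5a1 was also called in TRACK vs WT (0.51, adjusted p = 0.0115), Slc2a5 and Slc20a2 were called in TRACK-VAD vs WT-VAD, and Slc20a1 in WT-VAD vs WT was not (adjusted p = 0.0773). With no filter on low values Slc20a2 in TRACK vs WT was not called (adjusted p = 0.0848). Nor were Slc5a1 in TRACK-VAD vs WT-VAD (0.0588) and Slc20a1 in WT-VAD vs WT (0.0618) under that setting. The lane term rests on TRACK-VAD replicate 4 alone for comparisons between lanes, and with it Slc20a1 in WT-VAD vs WT was 1.06 and not called (adjusted p = 0.492). Slc5a10 in TRACK-VAD vs WT-VAD was 1.13 in that model (adjusted p = 0.000325) and Slc5a1 0.82 (0.0215), and TRACK and WT shared a lane number. With only TRACK and WT in the model Slc5a1, Slc5a2 and Pdzk1 were called as well (adjusted p = 0.0298, 0.0353 and 0.0221), and with only TRACK-VAD and WT-VAD in it Slc5a1 was not (0.114).

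For each member genes with the highest correlation of log2 level over the 14 libraries were looked up, as a description of likeness across 4 groups that the libraries share. Slc34a1 was closest to Nnt and Slc22a18 (r = 0.991 for both) and Pdzk1 to Tinag (0.990). Slc5a10 was closest to Plod1 (0.988) and Plcxd3 (0.987), and Slc20a1 to Chac1 (0.965) and Rell1 (0.952). Slc5a2 was closest to Slc26a4 (0.965) and Insrr (0.950), and Slc2a5 to Sorcs2 (0.959) and Arhgef7 (0.952). The weakest likeness was that of Slc2a2, whose closest gene, Hbs1l, had r = 0.745.

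Some exons overlap those of genes on the opposite strand, and whether the counting used strand is not given in the sources used here. Gpr89 covers 37.5% of the exon bases of Pdzk1, and averaged 17.5 FPKM in TRACK and 20.8 FPKM in WT, far below Pdzk1. Pfn3 covers 11.7% of those of Slc34a1, and averaged 21.7 FPKM in TRACK and 76.0 FPKM in WT, so its level differed in the same direction as that of Slc34a1 at a small part of its size. BC017158 covers 20.6% of Slc5a2 and Fam83g 16.6% of Slc5a10, and their means were 10.2 and 2.15 FPKM in TRACK and 11.5 and 2.89 FPKM in WT. For Slc20a1, 9830144P21Rik covers 8.1% and Gm4430 5.02% of the exon bases, and the levels of these overlapping genes were not analysed here.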

How the data were processed

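RNA-seq of kidney cortex used 51-base single-end reads on a HiSeq2000, per the labels' protocols. The authors deposited FPKM values per gene and library, and a table of their own comparisons with a mean normalised signal, log2 fold changes and p-values. The submitters' processing notes name mm9 and DESeq 1.32, the counting tool is not given in the sources used here, and the deposited positions lie on GRCm38, with 16807 of 22007 gene IDs at identical start and end in GENCODE. The number of reads per library is not known, and values therefore carry no counting interval.

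From the deposited FPKM, libraries were scaled by a trimmed mean of log ratios (30% of log ratios and 5% of levels trimmed, factors 0.894 to 1.17). Genes with at least 1 FPKM in 3 libraries were kept, and 17 genes listed at 0 in a library while others of its group were well expressed were left out. limma 3.58.1 with a trend, in R 4.3.3, was fitted to log2(scaled FPKM + 1) over 4 group means and 14 libraries, and p-values were adjusted by the Benjamini-Hochberg method over 12251 genes at a threshold of 0.05. The added 1 FPKM understates changes of low genes. The scripts were tested on simulated data. Another 6 columns of sample values were not used. No 2 libraries held identical values. Unless only the compared groups entered the model, p-values rest on a spread between mice pooled over the 4 groups as labelled. They do not follow the spread of the compared groups alone. Slc34a1 had an SE of 0.29 in both comparisons of genotype, with an SD of 89.2 FPKM in TRACK and 259 FPKM in TRACK-VAD.

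The members and the lists were chosen with earlier results of these data known. All 10 members were named, up to 4 called genes of each list by size of difference, and for likeness the 2 genes with the highest correlation with a member. Slc17a1, Pth1r, Vdr, Khk and Slc9a3 were also named after their values were seen, where that rule did not name them. A few genes that the rule named, and a planned motif search, are not reported here. Alternatives were another pseudocount, no filter, other scalings, the compared groups only, a replicate block, a lane term and leaving out each library.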

Additional observations from a re-analysis of the deposited data

Results flagged for a closer look

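In the TRACK group the ratio of Slc2a2 to Slc2a5 was 1.38 in replicate 1, against 0.92 to 0.95 in the other 3 libraries, a gap large for the range of the group. The same library stood apart for the share of Slc2a2 in the summed FPKM of the 2 genes, 58.0% against 47.9 to 48.7%, which is the same quantity in another form. These were 2 of 46 sets of 4 libraries examined, and chance alone would mark about 1 in 20. The cause was not tested.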

How the results depend on the processing

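Across the members 688 alternative values kept direction and side of the threshold, 26 lost and 13 gained a call, and 33 changed sign. Leaving out each library in turn gave 1026 (without WT replicate 3) to 1919 called genes in TRACK vs WT, 1613 (without WT-VAD replicate 2) to 3464 in TRACK-VAD vs WT-VAD, 5 to 48 in WT-VAD vs WT, 9 to 55 in TRACK-VAD vs TRACK and 0 to 7 for the interaction. With the compared groups only the counts were 3464 in TRACK vs WT, 584 in TRACK-VAD vs WT-VAD, 113 in WT-VAD vs WT and 3 in TRACK-VAD vs TRACK. A pseudocount of 0.1 gave 10 in TRACK-VAD vs TRACK and 0 for the interaction, no filter gave 40 in WT-VAD vs WT, and no scaling gave 4 for the interaction. Of the calls in TRACK vs WT 49.2% were higher in TRACK, and 80.3% without scaling; in TRACK-VAD vs WT-VAD these were 49.9% and 82.7%. A lane term gave 221 in TRACK-VAD vs WT-VAD, 0 in WT-VAD vs WT, 55 in TRACK-VAD vs TRACK and 0 for the interaction. A replicate block gave 7 in TRACK-VAD vs TRACK and 0 for the interaction. Same-numbered libraries correlated at -0.143 to 0.382 in their deviations (median 0.05), against -0.307 to 0.281 (median -0.049) for other pairs. Of 14 libraries, 5 were closest to their own number. These values do not settle whether same-numbered libraries share more than a number. Under the block Slc20a2 in TRACK vs WT and Slc20a1 in WT-VAD vs WT were not called (adjusted p = 0.0889 and 0.0558), Pdzk1 in TRACK-VAD vs WT-VAD was (0.039), and Slc2a2 in TRACK vs WT was -0.016 in log2 difference.

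Changes of sign were in members not called either way. Slc2a2 was -0.007 in TRACK vs WT without the filter, and without scaling 0.18 in TRACK-VAD vs WT-VAD and 0.036 in TRACK-VAD vs TRACK. With the lane term Slc5a2 was 0.16 and Slc2a2 0.045 in TRACK-VAD vs WT-VAD; Slc2a2 was -0.049, Slc2a5 -0.78 and Pdzk1 -0.47 in WT-VAD vs WT; and the interaction was 0.016 for Slc2a2, 0.012 for Slc2a5, 0.013 for Slc20a2 and 0.18 for Pdzk1. With libraries left out, Slc2a2 ran from -0.15 to 0.18 in TRACK vs WT, -0.12 to 0.21 in WT-VAD vs WT, -0.12 to 0.077 in TRACK-VAD vs TRACK and -0.22 to 0.12 in the interaction. Slc5a2 ran from -0.45 to 0.022 in TRACK-VAD vs WT-VAD, Slc2a5 from -0.025 to 0.16 and Pdzk1 from -0.047 to 0.12 in WT-VAD vs WT. Slc34a1 ran from -0.49 to 0.029 and Pdzk1 from -0.29 to 0.052 in TRACK-VAD vs TRACK, and Slc34a1 from -0.14 to 0.38 in the interaction. Precision is limited by 3 or 4 libraries a group, the number of reads behind a value is not known, and the cause of these shifts was not tested.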
